A study of Mus musculus with 2 samples.

Results

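The genes described here encode the proteins of the cytoplasmic ribosome in mouse liver cells. They were chosen by symbol alone: Rpl or Rps followed by a digit, plus Rplp0, Rplp1, Rplp2 and Rpsa, leaving out pseudogene symbols and the S6 kinases. This took 86 of the 32285 genes in the count matrices. Of these, 77 are standard ribosomal proteins, 46 of the large and 31 of the small subunit. Another 7 are paralogs of a standard gene (Rpl3l, Rpl10l, Rpl22l1, Rpl36al, Rpl39l, Rps27l and Rps27rt), and 2 encode other proteins: Rpl7l1, a factor of large-subunit assembly, and Rps19bp1, a protein that binds the Rps19 protein. Of the 86, 85 had at least 1 UMI in the kept cells and Rpl10l, a gene known from testis, had none. The symbol rule leaves out some genes whose products also sit on the ribosome; of these, Fau and Rack1 are given below as related genes.

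Cells make the ribosomal proteins in nearly equal numbers, since 1 copy of most of them goes into each ribosome, and excess protein is degraded. Their mRNAs are short, abundant and stable, and many start with a run of pyrimidines at the 5′ end (a TOP sequence), through which growth signals and nutrient supply set how much of the mRNA is translated. Lymphocytes are known in single-cell data for the large part of their mRNA that belongs to this family, while in hepatocytes and late red cell precursors a few mRNAs, for secreted proteins or for haemoglobin, dominate.

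The pyrimidine run is shown because it is the sequence feature the family is known for: Rps9, Rpl31, Rplp2, Rps27 and Rps27l have results below, and Rps6, Rps18 and Rpl7a are examples shown for the run alone. RefSeq promoter windows (GRCm38.p6) were found for 66 of the 86 members by symbol. A run of at least 8 pyrimidines (C or T on the gene's strand) within 50 bases of an annotated start was present in 53 of these 66 (80.3%), in 39.3% of all 27025 genes with a window and in 34.8% of 69 mitochondrial ribosomal protein genes. The lines below give 35 bases around the start, 20 before it and 15 from it on, with the pyrimidine run in capitals; where a gene has several annotated starts, the one with the longest run is shown. The windows are Rps6 at chr4:86857353-86857387 (minus strand), Rps18 at chr17:33955651-33955685 (minus strand), Rplp2 at chr7:141447631-141447665 (plus strand), Rpl7a at chr2:26910787-26910821 (plus strand), Rps9 at chr7:3704021-3704055 (plus strand), Rpl31 at chr1:39367831-39367865 (plus strand), Rps27 at chr3:90213634-90213668 (minus strand) and Rps27l at chr9:66946066-66946100 (plus strand).
Rps6: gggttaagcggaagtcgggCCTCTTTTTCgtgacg
Rps18: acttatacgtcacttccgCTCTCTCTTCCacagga
Rplp2: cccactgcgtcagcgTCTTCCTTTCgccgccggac
Rpl7a: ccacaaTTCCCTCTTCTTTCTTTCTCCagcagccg
Rps9: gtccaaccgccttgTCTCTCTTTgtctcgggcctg
Rpl31: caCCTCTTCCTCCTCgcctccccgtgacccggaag
Rps27: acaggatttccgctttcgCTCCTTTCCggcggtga
Rps27l: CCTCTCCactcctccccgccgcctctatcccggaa
In Rps6, Rps18, Rplp2, Rpl7a, Rps9 and Rps27 the run spans the annotated start. In Rpl31 it ends before the start, and in the paralog Rps27l it lies at -22 to -14, upstream of the start and partly outside the printed bases. Rps27l has a second run of the same length, left in lower case, which begins after 1 further base and also ends before the start. The 7 letters CCGGAAG, a core of sites known for ETS factors, were searched on both strands over the whole window of 250 bases before and 50 after the start. They were in 26 of the 66 members (39.4%), in 9.93% of all genes and in 37.7% of the mitochondrial ribosomal protein genes. These matches describe letters in a window and do not show a site in use.

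The cells came from livers of male mice aged 5 months on standard chow, digested with collagenase for non-parenchymal cells (the cells of the liver other than hepatocytes) and captured in droplets with 10x Genomics chemistry. The library labelled Hep-ADKTg is from a mouse strain that overexpresses adenosine kinase (Adk, the enzyme that turns adenosine into AMP) in hepatocytes under the albumin promoter, and the library labelled Hep-ADKWT is from its control strain; neither received a further treatment. Each genotype has 1 library, so effects of genotype, of the animals, of the digestion and of the library cannot be told apart, and whether a library holds 1 mouse or several is not stated. There is no replicate, no test was possible, and all intervals below are exact 95% intervals that cover counting error only.

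The Hep-ADKWT matrix holds 97135016 UMIs (counted mRNA molecules) in 15663 barcodes and the Hep-ADKTg matrix 96481752 in 17462; 88 barcodes occur in both. After filtering, 12482 and 14448 cells were kept, with medians of 4807 and 2785 UMIs per cell. Cell classes were rebuilt from marker genes and are called "-like". The classes did not take equal parts of the libraries: hepatocyte-like cells numbered 229 in Hep-ADKWT and 4375 in Hep-ADKTg, although the label names non-parenchymal cells. Adk, the transgene's product, was at 463 CPM (UMIs of the gene per 1000000 UMIs of the class, 441 to 487) in the Hep-ADKWT hepatocyte-like cells and at 531 CPM (523 to 538) in those of Hep-ADKTg, and at 994 and 1022 CPM in a further cluster led by the hepatocyte genes Rgn, Akr1c6 and Gsta3. These levels do not separate the labels clearly, and whether the transgene's mRNA carries the counted 3′ end is not stated.

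Ribosomal protein mRNA took very different shares of the transcriptome in the 11 classes with at least 50 cells in each library. In Hep-ADKWT its share of UMIs was 31.9% in T, NK and ILC lymphocyte-like cells, 31.1% in B cell-like cells, 25.6% in monocyte-like cells (monocytes or macrophages derived from them) and 22.7% in pDC-like cells (plasmacytoid dendritic cells). It was 17.6% in plasma cell-like cells, 12.0% in stellate cell, fibroblast or mesothelial cell-like cells and 9.78% in vascular endothelial cell-like cells. The lowest shares were 7.54% in neutrophil-like cells, 7.48% in LSEC-like cells (liver sinusoidal endothelial cells), 6.30% in hepatocyte-like cells and 5.29% in erythroid cell-like cells. In Hep-ADKTg the same classes held 31.0%, 30.9%, 25.3%, 21.8%, 13.6%, 13.4%, 11.4%, 5.52%, 8.13%, 6.05% and 1.96%. The order of the first 7 classes was the same in both libraries, and the B cell-like and lymphocyte-like classes differed from each other by less than 1 percentage point in each. The highest class exceeded the lowest 6.03-fold in Hep-ADKWT and 15.8-fold in Hep-ADKTg, where the low end is the erythroid class discussed below.

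**Figure D1:**
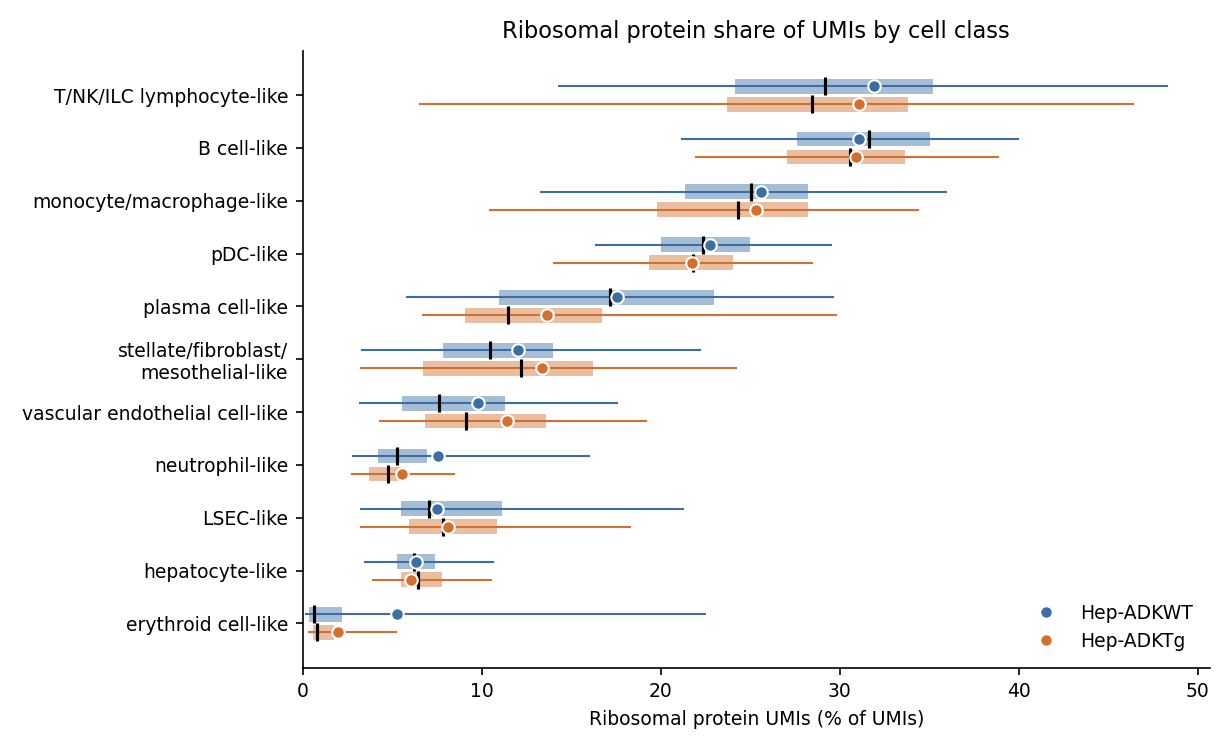
Share of UMIs that belong to the 86 ribosomal protein genes (x axis, %) in each class with at least 50 cells per library; large points are the pooled share of a library, vertical marks the median cell, boxes the range from the lower to the upper quartile and lines the 5th to 95th percentile of cells, which are not replicates. The pooled points of the 2 libraries differ by under 2 percentage points in every class but the plasma cell-like, neutrophil-like and erythroid cell-like ones.

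The broad lymphocyte class held cells with quite different shares. Cells with a UMI of Lef1 or Ccr7, markers of naive and central memory T cells, and none of Nkg7, Gzma or Gzmb had 42.8% of their UMIs in the family in Hep-ADKWT (287 cells) and 40.9% in Hep-ADKTg (198 cells). Cells with a UMI of Cd3e and a UMI of Nkg7, Ccl5, Gzma or Gzmb had 32.0% and 31.1% (3552 and 1864 cells). This broad group made up 77.8% and 69.8% of the class, and its 95th percentile of cells lay at 47.3% and 45.3%. Its share is therefore not the level of cytotoxic T cells alone. Cells with the NK genes Ncr1 or Klrb1c and no Cd3 chain had 21.7% and 21.3% (312 and 142 cells). The naive-type and NK-type cells thus lay on either side of the class as a whole in both libraries, and their median depths were 5530 and 4652.5 UMIs in Hep-ADKWT and 4216 and 3610.5 in Hep-ADKTg.

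Nearly the whole family took part in that contrast. In Hep-ADKWT, 75 of the 83 members with at least 50 UMIs over both cell types were higher in naive-type than in NK-type cells by a log2 ratio of 0.5 or more, where 8.72% of 5998 genes were, and 3 were lower by as much, where 47.7% of all genes were. In Hep-ADKTg, 74 of 82 were higher (10.3% of 3418 genes) and 2 were lower (43.3%). The median member stood at 0.94 and 0.91, while the median of all genes was -0.47 and -0.41. CPM are relative, so a family that takes a larger share lowers all other genes. Rps19, a small-subunit protein whose gene is mutated in Diamond-Blackfan anaemia, had the largest ratio: it was at 7525 CPM in naive-type and 1972 CPM in NK-type cells of Hep-ADKWT (log2 1.93) and at 6951 and 1976 CPM in those of Hep-ADKTg (1.81). Rpl12, a protein at the base of the large subunit's stalk, followed with 7566 and 2419 CPM (1.65) in Hep-ADKWT and 7592 and 2410 CPM (1.66) in Hep-ADKTg. The members that went the other way were no standard ribosomal proteins. Rps27l was at 99.3 and 235 CPM (-1.24) in Hep-ADKWT and at 131 and 246 CPM (-0.91) in Hep-ADKTg. Rpl7l1 was lower in naive-type cells by -0.55 and -0.79, and Rps19bp1 by -1.38 in Hep-ADKWT.

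The share also moved with the depth of a cell, in a direction that differed by class and, in B cell-like cells, by library. In lymphocyte-like cells of Hep-ADKWT the median cell went from 5.42% at 500 to 1000 UMIs to 33.8% at 8000 to 16000 UMIs. In Hep-ADKTg it went from 5.16% to 33.3%. The 59 Hep-ADKWT cells above 16000 UMIs were at 30.8%. The nuclear transcripts Malat1 and Neat1 made up 6.86% and 2.24% of UMIs in those 2 bins of Hep-ADKWT and 3.73% and 2.49% in Hep-ADKTg. Bins also need not hold the same cell types. In Hep-ADKWT, cluster 14, led by Cd8b1 and Cd8a, had a median of 8041.5 UMIs and a share of 42.1%. Cluster 26, led by Gzma and Klra4, had 4189.5 UMIs and 22.5%. Monocyte-like cells also rose with depth, from 18.8% at 4000 to 8000 UMIs to 26.9% above 16000 UMIs in Hep-ADKWT. In Hep-ADKTg they rose from 22.1% to 27.6%. LSEC-like cells had their highest shares at low depth: 15.03% in Hep-ADKWT and 11.5% in Hep-ADKTg at 500 to 1000 UMIs, against 6.43% and 7.65% at 4000 to 8000 UMIs. Erythroid cell-like cells went from 1.01% at 2000 to 4000 UMIs to 0.464% at 8000 to 16000 UMIs in Hep-ADKWT and from 0.947% to 0.615% in Hep-ADKTg. Hepatocyte-like cells stayed near one level, with 6.52% and 7.05% at 500 to 1000 UMIs and 5.97% and 5.83% above 16000 UMIs. B cell-like cells were at 25.2% in Hep-ADKWT and 27.7% in Hep-ADKTg at 1000 to 2000 UMIs. From 2000 to 4000 UMIs to 8000 to 16000 UMIs they fell from 32.0% to 29.7% in Hep-ADKWT. Over the same bins they rose from 30.6% to 32.5% in Hep-ADKTg. Since the libraries differ in depth, a comparison between them within 1 class also compares depths.

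**Figure D2:**
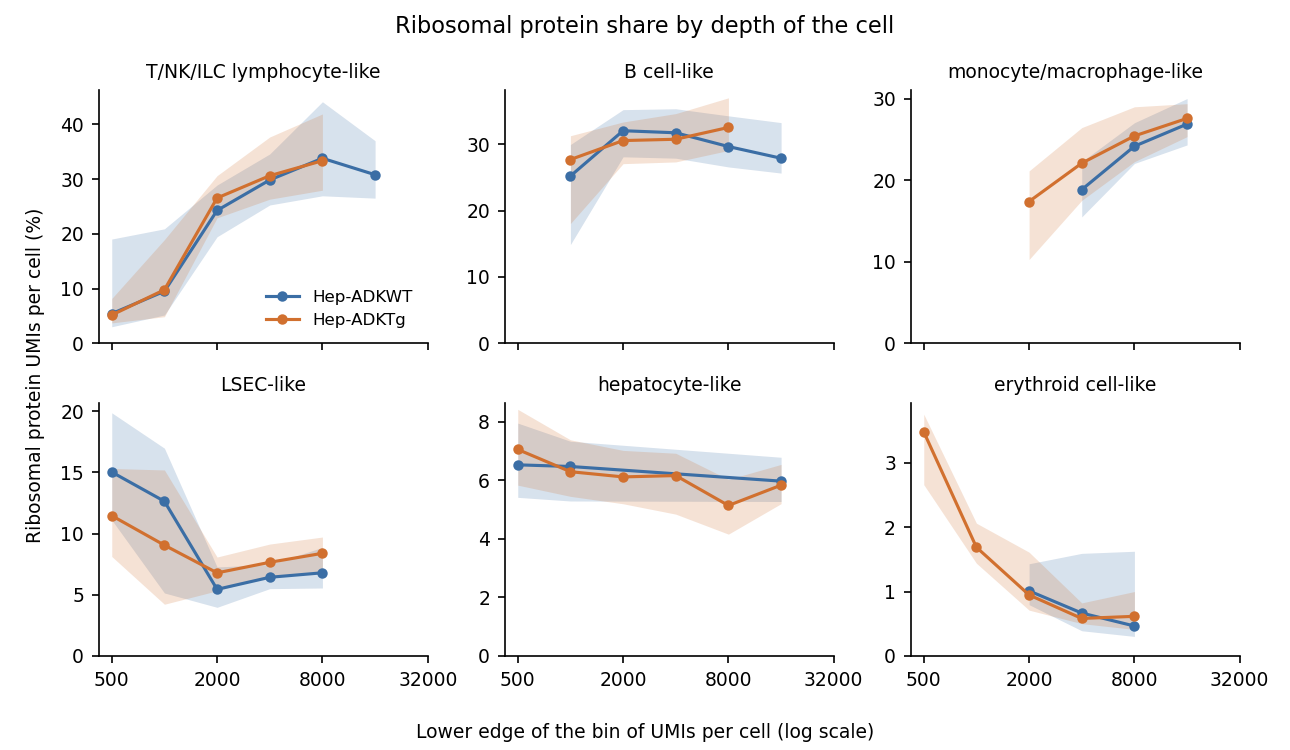
Median ribosomal protein share of a cell (y axis, % of its UMIs; band, lower to upper quartile of cells) by depth bin (x axis, lower edge in UMIs per cell, log scale; bins with at least 20 cells drawn) in the 6 classes compared between libraries. The lymphocyte and monocyte panels rise with depth, and the LSEC panel is highest at 500 to 1000 UMIs, with 15.03% in Hep-ADKWT and 11.5% in Hep-ADKTg.

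Hepatocyte-like cells fell into clusters of very different depth. The deep hepatocyte-like cells of cluster 9 (72 and 816 cells, medians of 43187.5 and 32513.5 UMIs) had 6.05% in Hep-ADKWT and 5.70% in Hep-ADKTg, with 15.7% and 13.7% mitochondrial UMIs. The shallow cells of cluster 1 (108 and 2507 cells, medians of 673.5 and 702 UMIs) had 7.14% and 8.04%, with 2.51% and 3.13% mitochondrial UMIs. In cluster 10 (38 and 832 cells) the pooled shares were 11.4% and 6.47%, but the median cells were at 5.78% and 6.01%. The unnamed cluster 0 (1313 and 1763 cells), led by Rgn, Akr1c6 and Gsta3, had 11.4% and 9.27%, and the nuclear transcripts Malat1 and Neat1 were at 0.228% and 0.0510% of its UMIs, against 0.408% and 0.502% in cluster 9. Among endothelial cells, the deep LSEC-like cluster 7 (1117 and 72 cells) had 6.82% in Hep-ADKWT and 7.55% in Hep-ADKTg. The deep cluster 4 (79 and 1324 cells) had 8.82% and 7.54%. The shallow cluster 11 (32 and 787 cells) had 15.2% and 12.0%, and the shallow cluster 19 (426 and 6 cells) had 15.3% and 24.9%.

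Over all kept cells the family took 22.7% of UMIs in Hep-ADKWT and 13.9% in Hep-ADKTg, 1.64-fold less (log2 ratio -0.71). In 5 of the 6 compared classes the difference was much smaller. The log2 ratio of Hep-ADKTg over Hep-ADKWT was -0.04 in lymphocyte-like, -0.01 in B cell-like, -0.02 in monocyte-like, -0.06 in hepatocyte-like and 0.12 in LSEC-like cells, and -1.43 in erythroid cell-like cells, the 6 classes with at least 200 cells in each library. With each named class of Hep-ADKTg weighted as in Hep-ADKWT, the share came to 22.1%, against 23.1% over the named classes of Hep-ADKWT and 13.8% over those of Hep-ADKTg. Hepatocyte-like cells held 4.54% of the named-class UMIs in Hep-ADKWT and 51.3% in Hep-ADKTg.

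None of these differences kept its sign under every setting tried. The erythroid one turned to 0.712 without cells with a lymphocyte marker UMI, a setting added after seeing the data. In lymphocyte-like cells of 1000 to 3000 UMIs the ratio was 0.24, and in LSEC-like cells of that depth it was -0.17. Keeping doublets (droplets with more than 1 cell) made the LSEC-like ratio -0.115, and hepatocyte-like cells with at most 10% mitochondrial UMIs gave -0.26. Different clusters held most of a class in each library. The B cell-like class was 84.5% cluster 3 in Hep-ADKWT and 89.0% cluster 5 in Hep-ADKTg, and the LSEC-like class was 67.5% cluster 7 in Hep-ADKWT and 60.5% cluster 4 in Hep-ADKTg. Lymphocyte-like cells were mostly in clusters 6 and 8 (29.2% and 25.4%) in Hep-ADKWT and in clusters 2 and 12 (64.9% and 27.95%) in Hep-ADKTg. Within cluster 7 the LSEC-like ratio was 0.14 and within cluster 4 it was -0.23.

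Few single members differed between the libraries by as much as the size used for a call. A member was called higher or lower at a log2 ratio of 0.5 or more in CPM of the class, among genes with at least 50 UMIs in it. In B cell-like cells 0 of 83 members were called higher and 0 lower, where 9.02% and 11.4% of all genes were. In LSEC-like cells it was 0 and 0 of 83 (all genes 7.92% and 10.7%). Hepatocyte-like cells gave 0 and 0 of 83 (7.97% and 10.5%), and monocyte-like cells 0 and 0 of 83 (7.70% and 12.0%). In lymphocyte-like cells 0 of 84 were higher (9.73%) and 1 was lower (7.77%). Most members have far more UMIs than most genes, and counting error passes 0.5 more easily at low counts, so these shares are no like-for-like background. The member medians were -0.00473 for B cell-like, 0.10 for LSEC-like, -0.03 for lymphocyte-like, -0.06 for hepatocyte-like and -0.01 for monocyte-like cells, beside medians of all genes of -0.15, -0.13, -0.10, -0.03 and -0.08. In LSEC-like cells 71 of the 83 members lay above 0, as did 3444 of 10649 genes. TMM scaling adds 0.05 to 0.12 to every ratio of a class (0.60 in the erythroid class), so ratios nearer to 0 than that depend on the scaling.

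**Figure D3:**
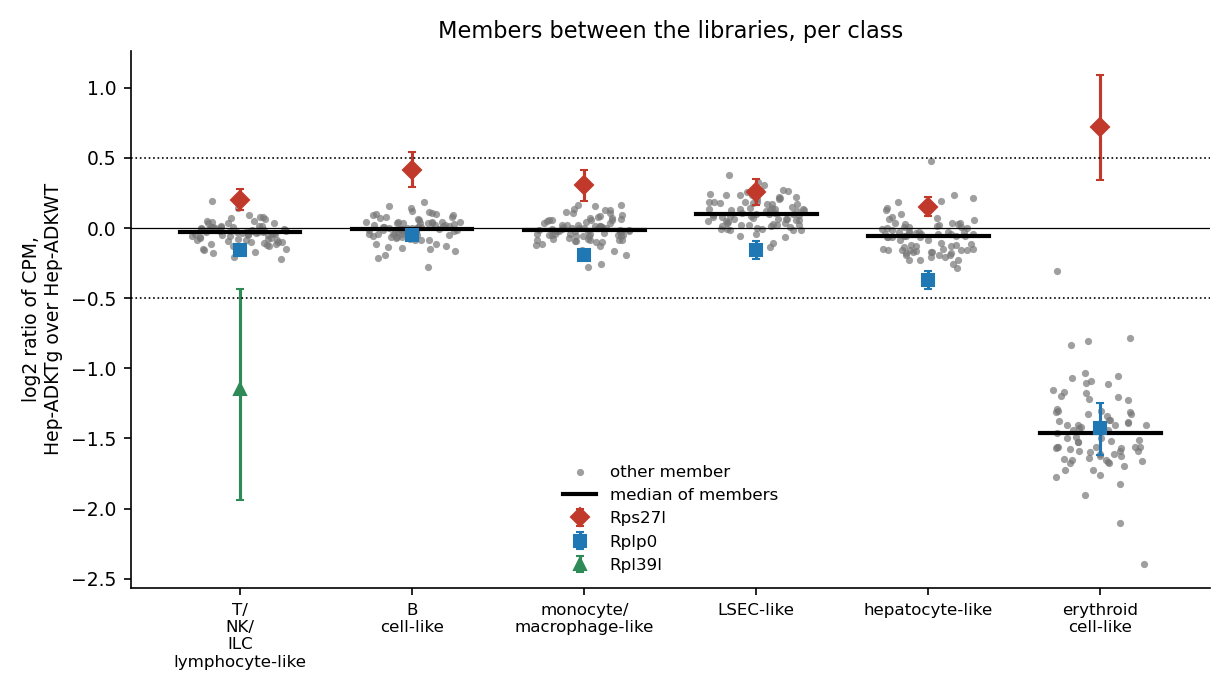
Log2 ratio of CPM, Hep-ADKTg over Hep-ADKWT (y axis), of each member with at least 50 UMIs in the 6 compared classes (x axis); black bars are member medians, dotted lines the call at 0.5, and error bars 95% counting intervals. Outside the erythroid cell-like class only Rpl39l in lymphocyte-like cells lies past a dotted line.

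Members differed from each other in level, as counted by captured 3′ ends and not per length. Over all kept cells, with the libraries weighted equally, the 77 standard members lay between 629 and 5245 CPM with a median of 2467 CPM, an 8.34-fold range, and the 10 highest held 22.3% of the sum. Of the 50 genes with the highest mean CPM in these cells, 17 were members. The highest small-subunit members included Rps24, Rps29 and Rps27, and the highest large-subunit members Rplp1, Rpl37a, Rpl23 and Rpl13. Rps29 was at 8290 and 7824 CPM in lymphocyte-like cells (log2 -0.08) and at 1885 and 1877 CPM in hepatocyte-like cells (-0.01). Rpl37a, of the large subunit, was at 6876 and 6280 CPM in lymphocyte-like cells (-0.13), 4936 and 4320 in monocyte-like (-0.19) and 1874 and 2204 CPM in LSEC-like cells (0.23). The large-subunit proteins Rpl23 and Rpl13 were at 6748 and 6615 CPM and at 6815 and 6898 CPM in lymphocyte-like cells (-0.03 and 0.02).

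Rps24 had the highest mean of the small-subunit members over both libraries, while Rps29 was above it in Hep-ADKTg as a whole and in hepatocyte-like cells of both. Rps24 (ENSMUSG00000025290), at chromosome 14, 24487125 to 24496959 on GRCm38, was at 10177 CPM in Hep-ADKWT and 10136 CPM in Hep-ADKTg lymphocyte-like cells, and at 1172 and 1048 CPM in hepatocyte-like cells. Its ratios of -0.01 and -0.16 were small beside the distance between those cell types. Rps25, a small-subunit protein known for a role in translation from internal entry sites, was higher in Hep-ADKTg in 5 of the 6 classes, all but the erythroid one. It was at 605 and 703 CPM in hepatocyte-like cells (log2 0.22, 0.15 to 0.28) and at 728 and 862 CPM in LSEC-like cells (0.24, 0.19 to 0.30). The hepatocyte-like value turned to -0.10 with at most 10% mitochondrial UMIs and was -0.00718 at 1000 to 3000 UMIs. Rps7, an assembly protein of the small subunit, was lower in the same 2 classes, at 512 and 420 CPM in hepatocyte-like (-0.29) and 651 and 591 CPM in LSEC-like cells (-0.14). At 1000 to 3000 UMIs these 2 values were 0.495 and -0.52. Rps12 was at 1776 and 2230 CPM in LSEC-like cells (0.33), but at -0.09 in those of 1000 to 3000 UMIs. Of the 3′ stretches of Rps12, 85.8% are shared with other genes. Rps27, which carries a zinc finger, was lower in monocyte-like (4573 and 3832 CPM, -0.25), lymphocyte-like (7840 and 7055 CPM, -0.15) and B cell-like cells (9363 and 8447 CPM, -0.15). The lymphocyte-like value turned to 0.24 at 1000 to 3000 UMIs, and the B cell-like value was 0.00131 with hepatocyte-derived UMIs subtracted. Rpsa, also known as the laminin receptor, was at 5203 and 5090 CPM in lymphocyte-like and at 835 and 787 CPM in hepatocyte-like cells, with ratios of -0.03 and -0.09.

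The large-subunit stalk recruits the translation factors. Rplp0, its base, was lower in Hep-ADKTg in all 6 classes: 2587 and 2500 CPM in B cell-like (-0.05), 3301 and 2966 in lymphocyte-like (-0.15), 3509 and 3074 in monocyte-like (-0.19), 597 and 536 in LSEC-like (-0.16) and 600.3 and 464 CPM in hepatocyte-like cells (-0.37). Of the 81 members measured in the 6 classes 8 were below 0 in every one, Rplp0 among them, as were 21.5% of all genes. With TMM or DESeq2 scaling the B cell-like value turned to 0.06 and 0.06, in lymphocyte-like cells of 1000 to 3000 UMIs it was 0.10, and in hepatocyte-like cells with at most 10% mitochondrial UMIs it was -0.72. Rplp2, which forms the stalk's arms with Rplp1, was at 751 and 885 CPM in hepatocyte-like cells (0.24, 0.18 to 0.30) and at 1036 and 1197 CPM in LSEC-like cells (0.21). The hepatocyte-like value was -0.00569 with at most 10% mitochondrial UMIs and -0.0225 at 1000 to 3000 UMIs. Rplp1 was at 1452 and 1388 CPM in hepatocyte-like cells (-0.06) and at 1826 and 2051 CPM in LSEC-like cells (0.17).

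Other large-subunit proteins at the low end were Rpl3 and Rpl4, both core proteins that enter the ribosome early. Rpl3 was at 2269 and 1950 CPM in lymphocyte-like cells (-0.22), and Rpl4 at 278 and 215 CPM in hepatocyte-like cells (-0.37). Rpl35 was at 1678 and 1451 CPM in lymphocyte-like (-0.21) and 2041 and 1789 CPM in B cell-like cells (-0.19). At 1000 to 3000 UMIs the signs turned, to 0.03 for Rpl3, 0.55 for Rpl4 and 0.11 for Rpl35, in the hepatocyte-like class for Rpl4 and the lymphocyte-like class for the others. At the high end was Rpl23a, a protein near the exit of the peptide tunnel: it was at 529 and 686 CPM in LSEC-like (0.38), 1731 and 1966 in B cell-like (0.18) and 2197 and 2429 CPM in lymphocyte-like cells (0.15). Of 60-base stretches in the last 300 bases of its transcripts, 80.1% also occur in transcripts of other genes, so its counts depend on how the authors' counting treated such reads. For Rpl35 it is 95.9%. That holds for much of the family: 39 of the 86 members share over 50% of these stretches with other genes and 12 share none.

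The paralog Rps27l, at chromosome 9, 66946086 to 66949516, encodes a protein nearly identical to Rps27 and was the 1 member of the 81 measured in all 6 classes that was higher in Hep-ADKTg in every one. Among all 2473 genes measured in the 6 classes, 9.54% were. Rps27l was at 131 and 175 CPM in B cell-like cells (log2 0.42, 0.29 to 0.54), 172 and 198 in lymphocyte-like (0.20), 333 and 411 in monocyte-like (0.30), 258 and 307 in LSEC-like (0.25), 562 and 624 in hepatocyte-like (0.15) and 46.6 and 76.7 CPM in erythroid cell-like cells (0.72). Hepatocyte-like cells had the highest level of the 6 classes in each library. RNA of hepatocytes was also more abundant in other classes of Hep-ADKTg: transcripts of a fixed list of hepatocyte products made up 0.164% to 0.830% of UMIs in the other 10 classes of Hep-ADKWT and 0.689% to 4.93% in those of Hep-ADKTg. After subtracting a hepatocyte profile scaled to these transcripts, the ratio of Rps27l was -0.22 in B cell-like, -0.22 in lymphocyte-like, -0.0089 in LSEC-like and -1.08 in erythroid cell-like cells, and 0.27 in monocyte-like cells. That profile came to 1.61% to 3.63% of UMIs in these 5 classes of Hep-ADKWT and 6.41% to 16.3% in Hep-ADKTg, and rests on Rps27l being high in hepatocyte-like cells.

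Rps27l and Rps27 were used in different proportions by different cells. Rps27l gave 35.01% of the pair's UMIs in hepatocyte-like cells of Hep-ADKWT (33.7 to 36.3%) and 39.9% in Hep-ADKTg (39.5 to 40.4%). In LSEC-like cells it gave 13.6% and 15.8%, in monocyte-like cells 6.79% and 9.69%, in lymphocyte-like cells 2.14% and 2.73% and in B cell-like cells 1.38% and 2.03%. Hepatocyte-like cells were thus apart from all other classes in both libraries. Of the 3′ stretches of Rps27 56.3% are shared with other genes, and of those of Rps27l 11.0%, so these percentages also depend on how shared reads were counted. As counted, the share was higher in Hep-ADKTg in all 11 classes. In B cell-like, lymphocyte-like and monocyte-like cells Rps27 was also lower there, within the limits given above. With hepatocyte-derived UMIs subtracted, the ratios of Rps27l and Rps27 were -0.219 and 0.00131 in B cell-like cells. They were -0.223 and -0.0255 in lymphocyte-like cells and -0.0089 and 0.0906 in LSEC-like cells. In these classes the share was then lower in Hep-ADKTg, while Rps27l itself stayed higher in monocyte-like cells. Rps27rt, whose 3′ stretches are 88.0% shared with other genes, Rps27 among them, gave between 2.41% and 3.68% of the UMIs of its pair with Rps27 in all 11 classes; reads of the 2 genes may not be separable.

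The pair of Rpl36al and Rpl36a, which encode nearly identical proteins, was split in another way. Rpl36al gave 57.5% of its pair's UMIs in hepatocyte-like cells of Hep-ADKWT and 62.2% in Hep-ADKTg, 56.5% and 62.3% in plasma cell-like cells and 53.2% and 58.2% in pDC-like cells. It gave 31.2% and 34.7% in lymphocyte-like and 30.6% and 33.0% in B cell-like cells. Plasma cell-like and B cell-like cells, which belong to 1 lineage, were therefore far apart in both libraries. Of the 3′ stretches of Rpl36a 100% are shared with other genes, and of those of Rpl36al 66.1%, so the counts of both may be too low. These percentages may be off by an unknown amount in either direction, which need not be the same in each class. Rpl22l1, the paralog of the RNA-binding protein gene Rpl22, gave 41.2% and 40.1% of its pair in hepatocyte-like cells and 35.04% and 34.6% in stellate cell, fibroblast or mesothelial cell-like cells. In the other 9 classes it gave between 16.5% and 29.0%. Of the 3′ stretches of Rpl22l1 59.6% are shared with other genes, and of those of Rpl22 8.28%, so these percentages also depend on how shared reads were counted.

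**Figure D4:**
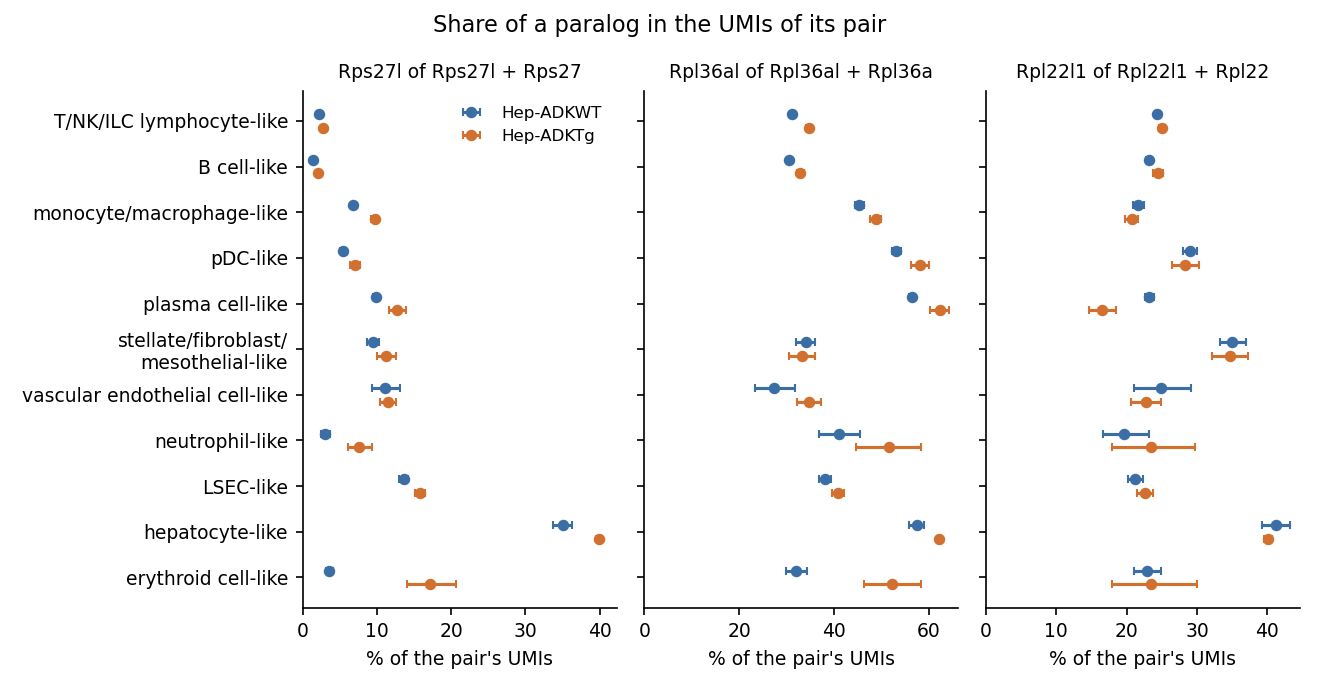
Share of Rps27l, Rpl36al and Rpl22l1 in the UMIs of the paralog and its parent (x axes, %) by class and library; error bars are exact 95% counting intervals. Hepatocyte-like cells have the highest Rps27l share (35.01% and 39.9%), and plasma cell-like, pDC-like and hepatocyte-like cells have Rpl36al shares over 50% in both libraries.

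The rarer paralogs were each seen in few cells. Rpl3l, known as the form of Rpl3 in striated muscle, had 38 UMIs in neutrophil-like cells of Hep-ADKWT and 8 in those of Hep-ADKTg, which made 10.4% (7.43 to 13.9%) and 8.99% (3.96 to 16.9%) of the UMIs of Rpl3l and Rpl3. In monocyte-like cells it had 8 and 5 UMIs, or 0.102% and 0.0946% of the pair, and it had 0 in the B cell-like and the LSEC-like class. None of its 3′ stretches is shared with another gene. Rpl39l, a paralog known from testis, had 100 UMIs (3.55 CPM) in lymphocyte-like cells of Hep-ADKWT and 19 (1.60 CPM) in those of Hep-ADKTg; this was the 1 member called in that class, at -1.15 (-1.94 to -0.43). Rpl7l1 and Rps19bp1, the proteins that are no part of the ribosome, were at 48.1 and 46.6 CPM and at 36.6 and 41.8 CPM in lymphocyte-like cells.

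Erythroid cell-like cells gave the largest difference of the 6 compared classes, and its sign depended on which cells were counted. The family took 5.29% of UMIs in the 473 cells of Hep-ADKWT and 1.96% in the 242 of Hep-ADKTg, and 79 of 81 members were called lower (65.6% of all genes) while 1, Rps27l, was called higher (14.1%). The median cell went the other way, with 0.604% and 0.790%. The 10% of cells with the most family UMIs held 64.3% of these UMIs in Hep-ADKWT and 68.0% in Hep-ADKTg. T cell markers were at 625 CPM in this class in Hep-ADKWT and 66.7 CPM in Hep-ADKTg, and NK cell or ILC1 markers at 320.1 and 72.5 CPM. Of the class, 159 and 20 cells had a UMI of a T, NK or B cell marker, and these had 12.8% and 11.0% of UMIs in the family. The 314 and 222 cells without one had 0.586% (0.576 to 0.596%) and 0.960% (0.942 to 0.978%), a log2 ratio of 0.71 in favour of Hep-ADKTg, with haemoglobin at 91.8% and 86.2% of their UMIs. This split was chosen after seeing the data. In cells of 1000 to 3000 UMIs the class ratio was -0.11 and 1 member was called lower.

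Some members departed from the level of the family in 1 class. The values here are a member's percentage of all ribosomal protein UMIs of a class. Rps9 (chromosome 7, 3703993 to 3706897), a small-subunit protein at the mRNA entry channel, made up 4.79% of the family in neutrophil-like cells of Hep-ADKWT and 5.86% in Hep-ADKTg, against 1.32% and 1.34% in lymphocyte-like and 0.963% and 0.966% in hepatocyte-like cells. Rps27a, which is made as a fusion with ubiquitin, was also high in neutrophil-like cells, at 3.80% and 4.20%, against 1.46% and 1.53% in lymphocyte-like cells. Of the 3′ stretches of Rps27a 86.3% are shared with other genes, against 12.0% for Rps9, so the Rps27a counts depend on how shared reads were treated. Rpl31 (chromosome 1, 39367842 to 39371911), near the peptide tunnel exit, made up 1.15% and 1.30% in pDC-like cells against 0.253% and 0.260% in lymphocyte-like cells. Its level in pDC-like cells, 2607 and 2827 CPM, was above that of every other of the 11 classes in both libraries. Rpl12 went the other way, with 1.66% and 1.71% in lymphocyte-like and 0.748% and 0.605% in neutrophil-like cells. Rpl41, the shortest protein of the family, reached 3.45% and 3.69% in hepatocyte-like cells and 1.46% and 1.41% in B cell-like cells. Of its 3′ stretches, 55.9% are shared.

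Such departures were the exception. For the 78 members with at least 200 UMIs in each of the 11 classes, the departure was taken as the log2 of a member's share of the family in a class, averaged over the libraries, less the mean over classes. The distance between a member's highest and lowest class had a median of 0.75 on this log2 scale, and 59 of the 78 stayed under 1. The widest were Rps9 (2.46), Rpl31 (2.25) and Rpl36al (1.98). Rps27l, with 182 UMIs in its thinnest class and so outside the 78, spanned 4.29.

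**Figure D5:**
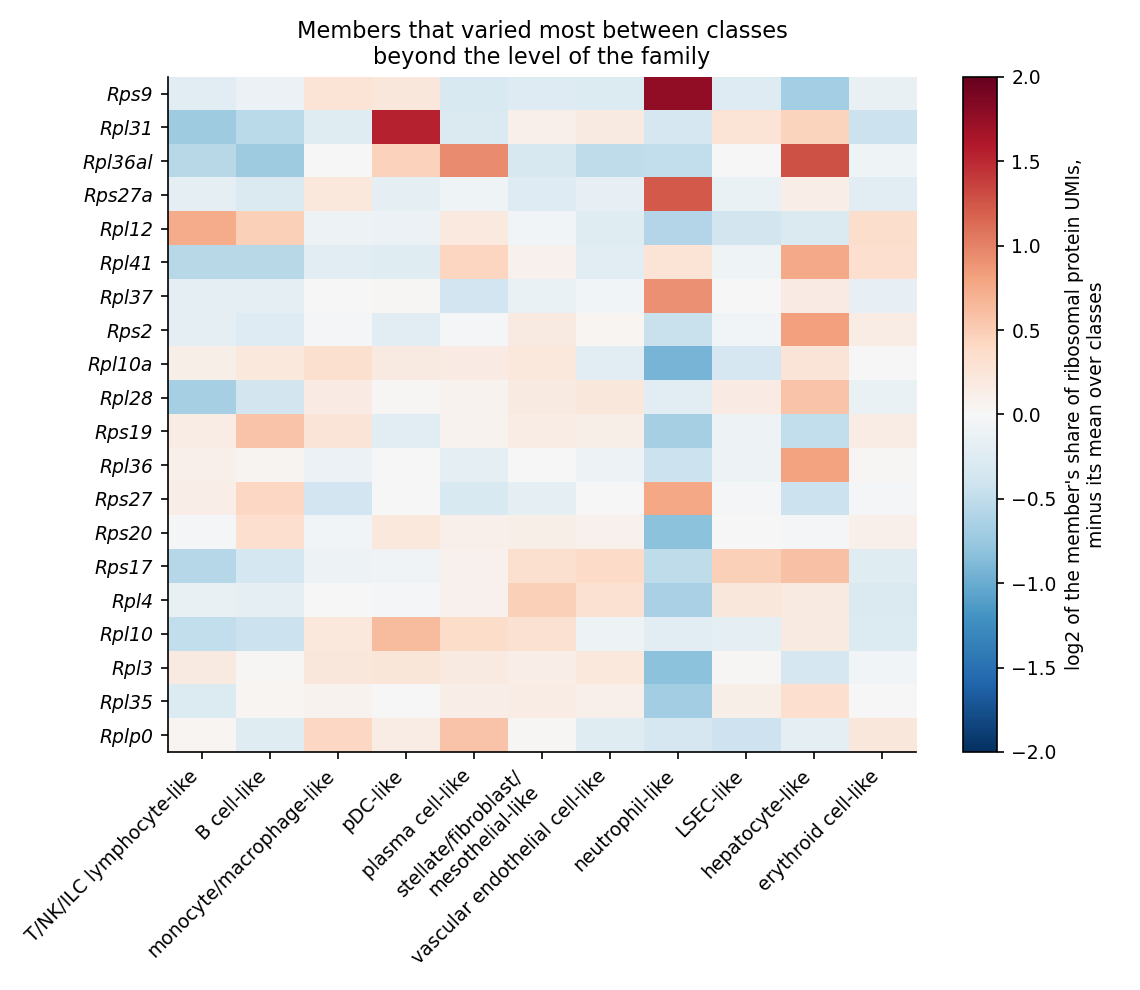
Departure of single members from the family (colour, log2 of the member's share of ribosomal protein UMIs less its mean over classes, libraries averaged) for the 20 members with the widest range among those with at least 200 UMIs in each of the 11 classes. Rps9 and Rps27a are high in neutrophil-like cells, Rpl31 in pDC-like cells, and Rpl41 in hepatocyte-like cells.

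The balance of the subunits also differed by cell type. UMIs of standard small-subunit members were 0.726 of those of large-subunit members in hepatocyte-like cells of Hep-ADKWT and 0.714 in Hep-ADKTg. The ratio was 0.922 and 0.915 in neutrophil-like, 0.895 and 0.896 in B cell-like, 0.857 and 0.858 in lymphocyte-like and 0.856 and 0.856 in monocyte-like cells. Hepatocyte-like cells had the lowest ratio of the 11 classes in both libraries and neutrophil-like cells the highest. The small-subunit members Rps9 and Rps27a, high in neutrophil-like cells as given above, enter the ratio of that class. It was not computed without them, so the place of neutrophil-like cells may rest on these genes.

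Related genes outside the symbol rule were compared in the same way. Fau, the small-subunit fusion gene, was at 8923 and 8992 CPM in B cell-like and 6667 and 6863 CPM in lymphocyte-like cells (0.01 and 0.04). Rack1, a scaffold on the small subunit, was at 2205 and 2083 CPM in lymphocyte-like cells (-0.08) and at 357 and 305 CPM in hepatocyte-like cells (-0.23).

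Translation factors whose mRNAs also start with a pyrimidine tract were compared as a list. Of 15 such genes, 14 were below 0 in B cell-like (median -0.12), 14 in lymphocyte-like (-0.14), 13 in hepatocyte-like (-0.17), 12 in monocyte-like (-0.11) and 5 in LSEC-like cells (0.02); none was called in these 5 classes, and in the erythroid class 14 were called lower (median -1.37). The medians of all genes given above were also below 0 in the first 5 classes; those of LSEC-like and B cell-like cells, and no others of the 5, were lower than that of this list. TMM scaling moves each median up by the shift given above. Eef2, the factor of ribosome translocation, was at 926 and 749 CPM in lymphocyte-like cells (-0.31), and Pabpc1, which binds poly(A) tails, at 764 and 602 CPM (-0.34). Eef1b2, a subunit of the exchange factor of Eef1a1, was at 1465 and 1438 CPM (-0.03). Of the genes of the mitochondrial ribosome, 69 of 78 were above 0 in hepatocyte-like cells, with a median of 0.19 and 2 called higher, against 7.97% of all genes there. Medians in B cell-like, LSEC-like, lymphocyte-like and monocyte-like cells lay between 0.05 and 0.06, with 6 called higher in monocyte-like cells, where 7.70% of all genes were. Of 20 genes of ribosome biogenesis, 16 were below 0 in B cell-like cells (median -0.12) and 8 in lymphocyte-like cells (0.02). In LSEC-like cells it was 14 of 20 (-0.10), in hepatocyte-like cells 8 of 20 (0.07) and in monocyte-like cells 9 of 19 (0.002). Of all measured genes, 6965 of 10061 were below 0 in B cell-like, 7205 of 10649 in LSEC-like and 7488 of 11495 in lymphocyte-like cells. In hepatocyte-like cells it was 5569 of 10351, with 4782 above 0, and in monocyte-like cells 5407 of 8888. These counts and the medians of all genes given above apply to each of the lists.

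Across the 22 points formed by 11 classes and 2 libraries, the genes whose log2 CPM most resembled the summed family were Rack1 (Pearson r 0.987), Eef1b2 (0.986), Snrpg, a spliceosome protein gene (0.984), Eif3m (0.971), Naca (0.962), Eif3f (0.962), Nsa2 (0.961), Tpt1 (0.957), Eif3h (0.9503) and Npm1 (0.948), among 1247 other genes averaging at least 100 CPM. Fau ranked 72 (0.834) and Pabpc1 536 (0.526). These values are a description: the points share libraries, and the family's own share enters the total that every CPM is divided by.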

How the data were processed

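The authors deposited 1 gene-by-barcode matrix of UMI counts per library, whole numbers that are not normalized; the submitters' processing notes name Cell Ranger 6.1.2, R 4.1.0 and Seurat 4.0.2, and no label or header names the annotation used for counting. Barcodes needed 500 UMIs and 200 genes or more, and mitochondrial UMIs of 20% or less, to be kept; barcodes with a Scrublet doublet score over 0.2, a limit chosen after the data were seen, were removed (479 and 405). The caller's automatic limit would have marked 385 and 4. Cells of both libraries were clustered together with scanpy 1.11.5 and leidenalg 0.10.2 (2000 variable genes without the family, 30 components, 15 neighbours, resolution 1) and named from marker genes, so differences between classes may come from these rebuilt names.

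Counts were summed per class and library and given as CPM of the class. Intervals are exact 95% intervals (Poisson for levels, conditional binomial for ratios, Clopper-Pearson for shares) and cover counting error only. Classes with at least 200 cells in each library (6) were compared and those with at least 50 (11) described. A log2 ratio of 0.5 or more among genes with at least 50 UMIs in the class over both libraries counted as called; with 1 library per group there is no test. The genes named are the 4 most abundant members of each subunit, Rplp0, Rplp1, Rplp2, Rpsa, the paralogs and their parents, in each compared class the 3 members with the highest and the 3 with the lowest ratio among those with at least 200 UMIs, the 5 with the widest departure between classes, genes of the fixed lists, and the 10 genes most like the family; Rps6, Rps18 and Rpl7a are named for their sequences alone. Members and lists were chosen with earlier results of these data known. The intervals were tried on simulated Poisson counts of class sums, which is the kind of error they assume. The simulated counts held no variation between cells or libraries, so the trial says nothing about such variation. TMM factors came from edgeR 4.0.16 and size factors from DESeq2 1.42.0 (R 4.3.3), used for scaling alone. Other settings are in the closing section. Promoter windows are from RefSeq (GRCm38.p6). Results for some genes are not reported here.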

Additional observations from a re-analysis of the deposited data

How the results depend on the processing

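With 1 library per genotype no replicate could be left out. No paired analysis was possible because each group has a single library. The log2 ratios of the family's share given here are in the order B cell-like, LSEC-like, lymphocyte-like, erythroid cell-like, hepatocyte-like, monocyte-like, and values that moved by less than their counting interval are left out. Allowing the family's genes in clustering brought only 1 gene with a ribosomal protein symbol among the variable genes, so that setting hardly included the family. The ratios there were -0.0386, 0.139, -0.0307, -1.41 and -0.0406 (monocyte-like left out). With doublets kept they were -0.0438, -0.115, -0.0445, -1.62 and, for monocyte-like cells, -0.00357. Resolution 0.5 gave -0.0371, 0.14 and -0.0431 in the first 3 classes, and resolution 2.0 gave 0.13 (LSEC-like), -1.59 (erythroid), -0.0495 (hepatocyte-like) and 0.00923 (monocyte-like). At most 10% mitochondrial UMIs gave 0.142 (LSEC-like), -0.26 (hepatocyte-like) and -0.0113 (monocyte-like), and at least 1000 UMIs gave 0.128 (LSEC-like), -0.033 (lymphocyte-like) and -0.0714 (hepatocyte-like). In cells of 1000 to 3000 UMIs the ratios were -0.0629, -0.17, 0.243, -0.106 and 0.0458, with too few monocyte-like cells for a value. As a mean over cells they were -0.0359, -0.0189, -0.0727, -1.21, 0.0333 and -0.0537. Without mitochondrial, haemoglobin and hepatocyte-list UMIs they were 0.0194, 0.163, -0.0186, -0.809 and -0.0994. With hepatocyte-derived UMIs subtracted they were 0.13, 0.179, 0.0775, -1.81 and, for monocyte-like cells, 0.0379.

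Of 4 settings added after seeing the data, erythroid cells without a lymphocyte marker UMI gave 0.712, a change of sign, hepatocyte-like cluster 9 alone gave -0.085, lymphocyte-like cells of at least 2000 UMIs gave -0.0275, and LSEC-like cells without clusters 11 and 19 gave 0.119. Counts of members called stayed small outside the erythroid class. Members called higher in B cell-like cells numbered 1 with TMM or DESeq2 scaling, with no filter on low counts and at 1000 to 3000 UMIs. In hepatocyte-like cells they numbered 1 with either scaling, 2 with no filter and 6 at 1000 to 3000 UMIs, where 2 were lower. In LSEC-like cells 1 was lower with no filter and 2 at 1000 to 3000 UMIs. In lymphocyte-like cells 2 were lower with no filter, and at 1000 to 3000 UMIs 2 were higher and 0 lower. In monocyte-like cells 1 was higher with no filter. In the erythroid class 2 were higher with no filter, 0 with hepatocyte-derived UMIs subtracted and 0 at 1000 to 3000 UMIs, where 1 was lower. Single members that changed sign from a called value were all erythroid: Rpl22l1 (1.85), Rpl41 (0.24) and Rplp0 (0.0952) at 1000 to 3000 UMIs and Rps27l (-1.08) after subtraction. TMM scaling moved all genes by 0.05 to 0.12 in the 5 other classes and by 0.60 in the erythroid class. Apart from the change of depth range and the subtraction themselves, the cause of these shifts was not tested.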

Other observations

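Clusters and barcodes outside the comparisons also differed in the family's share. Among the unnamed clusters, one led by the macrophage complement genes C1qa, C1qb and C1qc (95 cells in Hep-ADKWT and 208 in Hep-ADKTg) had 20.5% and 16.6% of UMIs in the family. A cluster led by cell division genes such as Top2a and Mki67 (163 and 115 cells) had 25.5% and 25.2%, and a cluster led by the interferon-induced genes Ifit1, Cxcl10 and Isg15 (18 and 28 cells) had 30.5% and 27.3%. A cluster led by the nuclear RNA Neat1 (12 and 76 cells) had 3.88% and 4.13%, with Malat1 and Neat1 at 16.7% and 19.6% of its UMIs. Basophil or mast cell-like cells (60 and 15) had 22.4% and 18.2%, and cholangiocyte-like cells (35 and 99) had 14.2% and 13.4%.

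Barcodes left out of the analysis had low shares. Those with over 20% mitochondrial UMIs (1418 and 2604) had 3.39% and 3.005%, against 22.7% and 13.9% in the kept cells. Mitochondrial UMIs made up 51.2% and 38.2% of all UMIs in these barcodes, which lowers every other share. The share in the kept cells depends on their mix of classes. Barcodes with under 200 genes (1873 and 36) had 0.489% and 1.85%, with haemoglobin at 84.3% and 23.1% and mitochondrial UMIs at 9.82% and 42.0%.

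Of 11 genes known to be induced by tissue dissociation, 3 of 10 measured were called higher in Hep-ADKTg in B cell-like cells (9.02% of all genes), 4 of 10 in lymphocyte-like cells (9.73%) and 2 of 11 in monocyte-like cells (7.70%), with 0 lower in each. In LSEC-like cells 2 of 10 were higher (7.92%) and 1 lower (10.7%). In hepatocyte-like cells 0 of 8 were higher and 3 lower (10.5%), and in erythroid cell-like cells 4 of 4 were lower (65.6%). In B cell-like cells Hspa1a, a heat shock chaperone, had 4 UMIs in Hep-ADKWT and 180 in Hep-ADKTg.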
